A study of Mus musculus with 21 samples.

Results

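The genes described here are 8 transcripts of the extracellular matrix, of the cytoskeleton of matrix-producing cells and of the plasminogen activator system, measured in mouse lung after chronic exposure to agricultural dust. They are Col1a1, Col3a1, Col4a1, Fn1, Vim, Thbs1, Plau and Plaur, taken by name as 8 of the 770 genes of the panel, and all 8 were on it. The mean raw count of each reached 87, the minimum for a gene to be tested, so that all 8 are among the 388 genes tested. In the RefSeq table used for names, Col3a1 and Fn1 lie on mouse chromosome 1, Vim and Thbs1 on chromosome 2, Plaur on 7, Col4a1 on 8, Col1a1 on 11 and Plau on 14. Fn1 and Vim stand in a gene table that the study chose on these same libraries, so their direction here is not independent evidence.

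Left lungs of male and female A/J mice, 8 to 12 weeks of age on arrival, were profiled on the NanoString mouse PanCancer Immune panel, which counts transcripts with barcoded probes and no amplification. Mice inhaled 50 µL of either saline (PBS) or 12.5% HDE, an aqueous extract of dust settled in hog barns, through the nose 3 times a week for 24 weeks. At week 4 each mouse received an intraperitoneal injection of either PBS or 100 mg/kg NNK, a carcinogen of tobacco that raises lung adenomas in this strain. The groups were saline only (n = 6), HDE only (n = 4), saline + NNK (n = 6) and HDE + NNK (n = 5), so that 12 libraries were saline-exposed and 9 HDE-exposed. Tumors were cut out before the RNA was prepared, and the tissue was a bulk piece of lung. Control mice of a later experiment of the study also received ethanol in saline by vein, and which libraries came from it is not given in the sources used here. In such tissue, fewer cells of a type and less RNA per cell cannot be told apart. Each library is labelled as a separate mouse, and the libraries were read in 2 runs, 12 in run 1 and 9 in run 2. Whether the runs coincide with the experiments of the study is not given, so run and experiment were not told apart.

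Type I and type III collagen are the fibrillar collagens that fibroblasts lay down between cells, and type IV collagen is the network of basement membranes under epithelium and endothelium. Fibronectin (Fn1) is a glycoprotein to which integrins bind, thrombospondin 1 (Thbs1) is a matricellular protein known to release active TGF-beta, and vimentin (Vim) is the intermediate filament of mesenchymal cells, macrophages and other leukocytes. Urokinase (Plau) cuts plasminogen into plasmin, a protease of fibrin and matrix, and its receptor (Plaur) holds it on the cell surface. These genes are much studied in lung scarring and in wound repair.

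RefSeq promoter windows (build GRCm38.p6) were found for 4 of the 8 genes. The last 120 bases before the start are shown for all 4, with no choice by result. Vim and Plaur had the smallest adjusted p of the 8 genes after HDE. The log2 fold changes of Col3a1 and Col4a1 had opposite signs between sexes or runs, as those of others of the 8 had between runs. All are written 5′ to 3′ on the strand of the gene, plus for Vim at chr2:13574191-13574310, for Plaur at chr7:24462363-24462482 and for Col3a1 at chr1:45311418-45311537, and minus for Col4a1 at chr8:11312827-11312946. Capitals mark matches, on either strand, to the letters TGACTCA (AP-1), GGGCGG (the GC box of Sp1), TATAAA (the TATA box) and CCAAT (the CCAAT box).
Vim: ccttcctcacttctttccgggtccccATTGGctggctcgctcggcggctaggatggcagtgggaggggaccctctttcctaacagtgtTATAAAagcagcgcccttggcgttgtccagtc
Plaur: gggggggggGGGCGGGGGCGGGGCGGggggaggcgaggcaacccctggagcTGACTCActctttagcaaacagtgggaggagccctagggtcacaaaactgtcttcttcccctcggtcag
Col3a1: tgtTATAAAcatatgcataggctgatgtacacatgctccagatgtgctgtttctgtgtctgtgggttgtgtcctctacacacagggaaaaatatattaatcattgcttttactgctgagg
Col4a1: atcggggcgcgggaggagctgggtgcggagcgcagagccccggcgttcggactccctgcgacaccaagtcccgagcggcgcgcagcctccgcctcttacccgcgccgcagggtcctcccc
The window searched was the 250 bases before the start. TATAAA stood 32 bases before the start in Vim and 117 bases before it in Col3a1, and 12.4% of all 32851 windows hold it. TGACTCA was found 69 bases before the start of Plaur alone of the 4, beside 4.46% of all windows. Plaur also held GGGCGG at 111, 105 and 100 bases, the last pair sharing a base, a motif in 32.7% of windows. CCAAT was found in Vim, 196 and 94 bases before the start, and in Col4a1, 145 bases before it, with 33.8% of all windows holding it. Only the matches within the last 120 bases show as capitals. These matches describe letters and no binding was measured.

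The libraries held 174604 to 529829 counts over the panel's genes. The 4 genes used for scaling (Eef1g, Oaz1, Rpl19 and Sdha) had a geometric mean of 496 to 2283 counts, and negative control probes gave 2 to 40 counts. Counts below are normalized counts, scaled to these 4 genes, unless called raw. Endothelial markers such as Pecam1 and epithelial ones such as Epcam and Muc1 were well above background in every library. The summed level of 10 macrophage markers was 1857 to 2666 in saline-exposed libraries and 2385 to 4975 in HDE-exposed ones. In the HDE only library in lane 12 of run 2 it was 2385, inside the saline range, and it was 3021 in the HDE + NNK library in lane 11 of run 1. Both stood apart for 9 endothelial markers too, with sums of 10975 and 12275, inside the saline range of 10761 to 13747, whereas the other HDE-exposed libraries ran from 6624 to 9663. The saline only library in lane 3 of run 2 carries a quality mark in the deposited table. Values without these libraries are given where leaving one out changed a call.

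Dust exposure came with higher counts of 4 of the 8 genes. Vim, Plaur, Fn1 and Col3a1 rose in HDE-exposed against saline-exposed lungs, each by 1.41-fold to 1.44-fold, while Plau, Col1a1, Col4a1 and Thbs1 did not pass the test, which was edgeR's quasi-likelihood test on the raw counts with p-values adjusted over all 388 genes at a threshold of 0.05. The background is high: 192 of the 388 genes, or 49.5%, were called, 153 higher and 39 lower, so that 4 of 8 is close to the share among all genes. Under another scaling (TMM, which centres most genes on no change) the split was 117 higher and 108 lower. The median log2 fold change of the 8 genes was 0.50, beside 0.15 over all genes tested. With TMM the median of all genes moved to -0.04, Vim, Plaur and Fn1 were still called at log2 0.33, 0.31 and 0.31, and Col3a1 was not (log2 0.31, adjusted p = 0.152). Scaling by the positive control probes left none of the 8 called, beside 67 of the 388 genes.

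**Figure D1:**
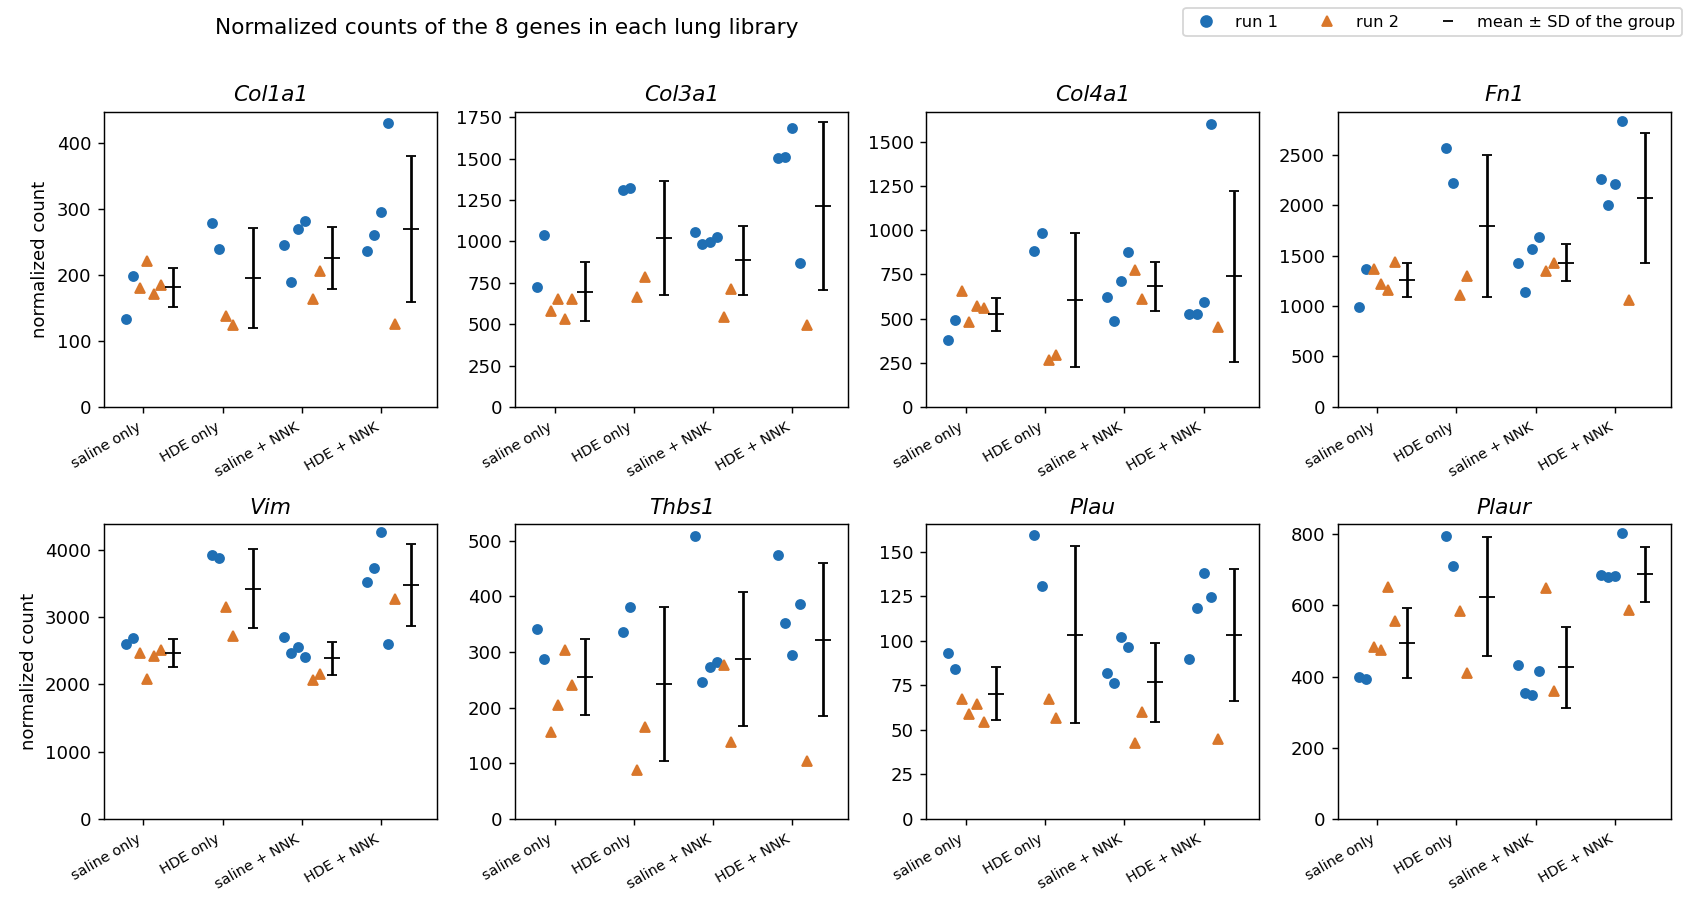
Normalized count (vertical axis, from 0) of each gene in every library of the 4 groups (horizontal axis), with circles for run 1, triangles for run 2 and black bars for the group's mean ± SD. Vim is the gene with the least overlap between exposures, and in both HDE groups the run 2 triangles lie below the run 1 circles for every gene but Vim.

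Vim, the intermediate filament protein, had the smallest adjusted p of the 8. In the 4 HDE only libraries its normalized counts were 3921, 3874, 3150 and 2713, and in the 5 HDE + NNK libraries they were 3523, 3721, 4263, 2605 and 3272. The saline only libraries ran from 2086 to 2684 with a median of 2487, and those of saline + NNK from 2057 to 2699 with a median of 2428. Thus 8 of 9 HDE-exposed libraries lay above every saline-exposed one, and the exception, 2605, was the HDE + NNK library in lane 11 of run 1. Means were 3449 ± 561 (SD, n = 9) with HDE and 2423 ± 218 (SD, n = 12) with saline. The log2 fold change was 0.51 ± 0.09 (SE), or 1.42-fold, with an adjusted p of 4.57e-05 by edgeR's test. Vim was called within both NNK backgrounds, at log2 0.47 ± 0.13 in HDE only against saline only (adjusted p = 0.00621) and 0.54 ± 0.12 in HDE + NNK against saline + NNK (adjusted p = 0.00105). The first of these calls was lost with TMM (log2 0.25, adjusted p = 0.143). It was also lost with DESeq2 (log2 0.25, adjusted p = 0.125), which used its own scaling and not the 4 genes. With positive control scaling both calls were lost (log2 0.32 and 0.24, adjusted p = 0.947 and 0.777). Over all genes these comparisons called 34.5% and 35.6% of the 388 genes, against 1 and 2 of the 8 genes here. The difference of the 2 responses was 0.07 ± 0.18 (adjusted p = 1.00).

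Plaur, the receptor of urokinase, was the other gene called in the HDE + NNK comparison. Its normalized counts were 795, 712, 583 and 410 in the HDE only libraries and 685, 680, 683, 803 and 587 in those of HDE + NNK. The saline only libraries ran from 394 to 653 (median 479) and those of saline + NNK from 347 to 648 (median 388). In 6 of 9 HDE-exposed libraries the count was above every saline-exposed value, and the lowest HDE value, 410, came from the run 2 lane 12 library with the saline-like macrophage sum. The log2 fold change was 0.51 ± 0.13 (SE, adjusted p = 0.00210) over both backgrounds. It was 0.69 ± 0.18 with NNK (adjusted p = 0.00409) and 0.34 ± 0.19 without it (adjusted p = 0.196), and without the run 2 lane 12 library the latter was 0.49 with an adjusted p of 0.0379. The test of the difference between these 2 responses gave 0.35 ± 0.26 (adjusted p = 1.00).

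Plau, urokinase itself, was counted close to the minimum. Raw counts were below 87 in 10 of 21 libraries, and the background of a library (mean plus 2 SD of its negative probes) was 13.1 to 43.7 raw counts. Normalized counts were 159, 131, 67.1 and 56.9 with HDE only and 89.9, 119, 138, 124 and 44.7 with HDE + NNK, against 54.2 to 93.0 with saline only and 42.8 to 102 with saline + NNK. HDE-exposed libraries were thus both the highest and among the lowest. The log2 fold change of 0.49 ± 0.21 missed the threshold (adjusted p = 0.0554). It moved with the treatment of low counts, to 0.62 (adjusted p = 0.00868) in the deposited table that raises values under 87 to 87, and to 0.41 (adjusted p = 0.217) after subtraction of background. It also passed in 6 of 21 fits that each left out 1 library, in run 2 without the HDE only library in lane 11 (adjusted p = 0.0281) or lane 12 (0.59, adjusted p = 0.0203) or the HDE + NNK library in lane 9 (adjusted p = 0.0136), and in run 1 without the saline only library in lane 2 (adjusted p = 0.0425) or the saline + NNK library in lane 4 (adjusted p = 0.0420) or lane 5 (adjusted p = 0.0469).

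Of the collagens, Col3a1, a chain of fibrillar type III collagen, was called and the others were not. Its normalized counts were 1310, 1322, 664 and 784 with HDE only and 1506, 1508, 1683, 873 and 494 with HDE + NNK. Saline only libraries had 533 to 1042 (median 654) and saline + NNK libraries 546 to 1056 (median 988). Hence 5 of 9 HDE-exposed libraries were above all saline-exposed ones, while 1, at 494, was below all of them. The log2 fold change was 0.50 ± 0.19 (adjusted p = 0.0373), and the call held in 10 of 21 fits that each left out 1 library. It was lost, at adjusted p of up to 0.0955, without any 1 of the saline only libraries of run 2 (lanes 3, 4, 5 and 6), the HDE only libraries of run 1 (lanes 10 and 12), the saline + NNK libraries of run 2 (lanes 1 and 2) or the HDE + NNK libraries of run 1 lanes 7, 8 and 9.

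Col1a1, the other fibrillar chain, had means of 236 ± 98.9 (SD, n = 9) with HDE and 204 ± 44.1 (n = 12) with saline, and a log2 fold change of 0.18 ± 0.18 (adjusted p = 0.458). Col4a1, of basement membrane, had 679 ± 419 and 602 ± 140 normalized counts, and a log2 fold change of 0.16 ± 0.24 (adjusted p = 0.618). The SD of Col4a1 rested in large part on the HDE + NNK library in lane 11 of run 1, with 1597 normalized counts where the next HDE + NNK library had 593. This is the same library in which Vim was lowest among the HDE-exposed and Fn1 (2828) and Col1a1 (430) were highest of all 21. Without it the log2 fold change of Col4a1 was -0.09 (adjusted p = 0.743). Both genes also turned slightly negative with TMM, to -0.03 and -0.09.

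Fn1, fibronectin, had normalized counts of 2561, 2215, 1107 and 1296 with HDE only and of 2258, 2005, 2205, 2828 and 1057 with HDE + NNK. Saline only libraries ran from 995 to 1440 (median 1292) and saline + NNK libraries from 1140 to 1683 (median 1426). HDE-exposed libraries therefore fell in 2 sets, 6 of 9 above every saline-exposed library and 3 inside the saline range, and those 3 are the HDE-exposed libraries of run 2. The log2 fold change was 0.52 ± 0.15 (adjusted p = 0.00647), and it stayed under the threshold in 21 of 21 fits that each left out 1 library. Within the NNK backgrounds it was 0.51 ± 0.22 without NNK (adjusted p = 0.0821) and 0.53 ± 0.21 with it (adjusted p = 0.0504). The first passed in 3 of 21 fits that each left out 1 library, all in run 2, at 0.69 without HDE only lane 11 (adjusted p = 0.0226), 0.64 without HDE only lane 12 (adjusted p = 0.0319) and 0.51 without HDE + NNK lane 9 (adjusted p = 0.0352). The second passed in 6 of 21, at 0.70 without HDE + NNK lane 9 of run 2 (adjusted p = 0.00460), and at adjusted p of 0.0317 to 0.0497 without any 1 of the 4 HDE only libraries or the saline + NNK library in lane 5 of run 1. Without HDE + NNK lane 9 of run 2, Col3a1 passed in that comparison as well (0.65, adjusted p = 0.0331, beside 0.45 with all libraries, which did not pass).

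Thbs1, thrombospondin 1, overlapped throughout, from 87.3 to 474 with HDE (median 337, n = 9) and from 139 to 508 with saline (median 274, n = 12). Its log2 fold change of 0.03 ± 0.26 had an adjusted p of 0.939. The highest library of all, 508, was a saline + NNK library, and the lowest, 87.3, an HDE only library of run 2.

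The single NNK dose moved none of the 8 genes past the threshold. In saline-exposed lungs the log2 differences between saline + NNK and saline only ran from -0.21 for Plaur to 0.38 for Col4a1, and in HDE-exposed lungs those between HDE + NNK and HDE only from 0.02 for Plau to 0.48 for Col1a1. None of the 8 had an unadjusted p under 0.05 in either comparison or in the interaction of HDE with NNK. Over all genes 0% were called by edgeR in each of these 3 comparisons (0 of 388, with 4, 8 and 4 genes at an unadjusted p under 0.05), and DESeq2 and limma called 0 genes as well. The standard errors of 0.12 to 0.41 for the 8 genes in the first 2 comparisons set what these group sizes can show.

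The response to HDE was next taken within each run. In run 1, with 6 libraries of each exposure, 6 of the 8 genes rose: Plaur by log2 0.90 ± 0.10, Fn1 by 0.85 ± 0.14, Plau by 0.56 ± 0.13, Vim by 0.52 ± 0.12, Col3a1 by 0.52 ± 0.16 and Col1a1 by 0.48 ± 0.18, with adjusted p from 1.48e-05 to 0.0479 in edgeR's test. Over all genes 46.1% were called in run 1, 161 higher and 18 lower. The response is the mean of those without and with NNK, and in run 2 the latter rests on 1 HDE + NNK library. In run 2, with 3 HDE-exposed and 6 saline-exposed libraries, Vim rose by log2 0.47 ± 0.11 (adjusted p = 0.00867), Col4a1 fell by 0.82 ± 0.15 (adjusted p = 0.00345) and Col1a1 fell by 0.54 ± 0.16 (adjusted p = 0.0228), beside 37.4% of all genes called, 91 higher and 54 lower. Thbs1 had a log2 fold change of -0.94 ± 0.33 there and missed the threshold at an adjusted p of 0.0536.

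**Figure D2:**
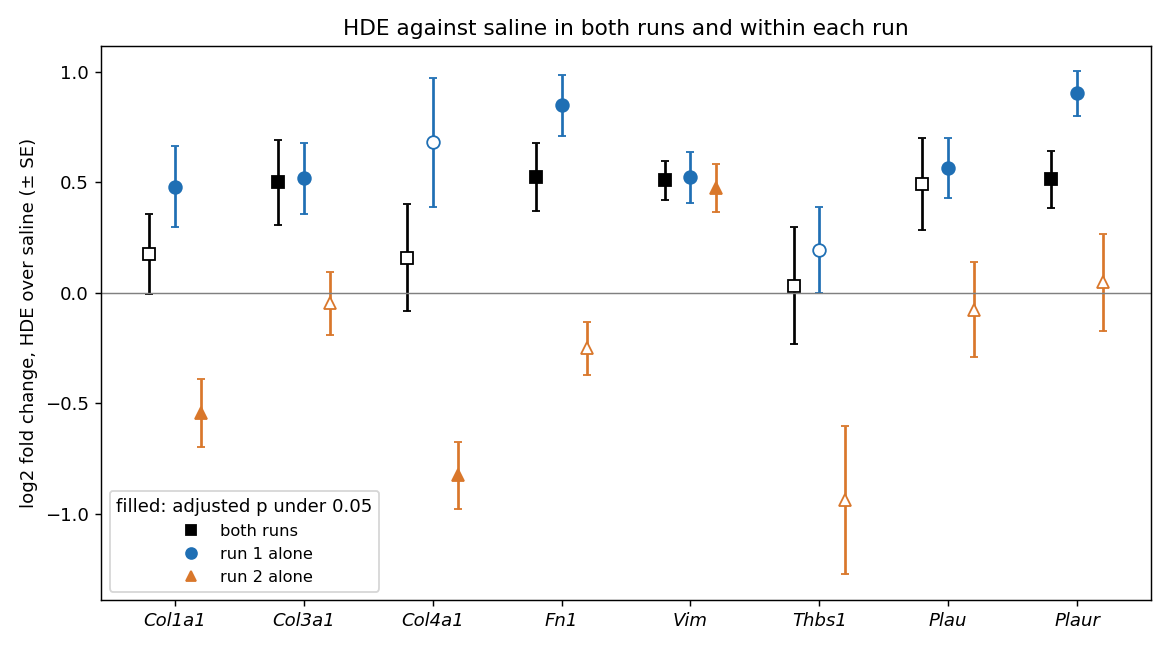
Log2 fold change of HDE over saline ± SE (vertical axis) for each gene (horizontal axis), over both runs (squares), in run 1 alone (circles) and in run 2 alone (triangles), filled where the adjusted p was under 0.05. Vim sits near 0.5 in all 3, while Col1a1 and Col4a1 are above 0 in run 1 and below 0 in run 2.

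The values behind this split are plain for Fn1 and Plaur. Fn1 was 2005 to 2828 in the 6 HDE-exposed libraries of run 1, above the 995 to 1683 of the saline-exposed ones, with no overlap. In run 2 the 3 HDE-exposed libraries had 1057, 1107 and 1296, and the 6 saline-exposed ones 1157 to 1440, so the ranges overlapped and the direction was the other way. Plaur was 680 to 803 with HDE and 347 to 433 with saline in run 1, again without overlap, but 410, 583 and 587 against 359 to 653 in run 2. For Col4a1 the 3 HDE-exposed libraries of run 2 (264, 296 and 450) all lay below the saline-exposed ones of that run (478 to 777), and for Col1a1 they did so too (124, 125 and 137 against 163 to 222). Vim was 2713, 3150 and 3272 with HDE against 2057 to 2511 with saline in run 2, without overlap in the direction seen in run 1.

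A model with exposure, NNK group and run together tested the difference of the responses. It called 0.515% of all genes, 2 of 388, and Fn1 was 1 of the 2, with a log2 response lower in run 2 by -1.09 ± 0.19 (adjusted p = 0.00656). The other was Myc, a transcription factor of cell growth, at -0.97 ± 0.21 (adjusted p = 0.0367). The call of Fn1 held in 20 of 21 fits that each left out 1 library and with TMM (-0.84 ± 0.16, adjusted p = 0.0196). Without the HDE + NNK library in lane 9 of run 2 it was -1.03 with an adjusted p of 0.108. Col4a1 (-1.53 ± 0.41), Plaur (-0.87 ± 0.22) and Col1a1 (-0.995 ± 0.28) had adjusted p of 0.0875, 0.0875 and 0.0950, and Vim had the smallest difference of the 8, -0.06 ± 0.16 (adjusted p = 0.850). The median difference over all genes was -0.24. Sex was not in this model, and its part in these differences was not tested. Leaving out the HDE + NNK library in lane 11 of run 1, which stood apart above, brought the differences of Col4a1 (-1.28), Col1a1 (-0.90) and Plaur (-0.84) under the threshold, at adjusted p of 0.0399, 0.0456 and 0.0408. Leaving out the saline + NNK library in lane 2 of run 2 did so for Plaur (-1.02, adjusted p = 0.0101). Of all genes, 129 of 388 (33.2%) had opposite signs in the 2 runs.

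The saline-exposed libraries also differed between runs, with 9.28% of all genes called. Plau was lower in run 2 by a log2 change of -0.67 ± 0.13 (adjusted p = 0.00527) and Col3a1 by -0.62 ± 0.15 (adjusted p = 0.0171). Col3a1 was 722 to 1056 in the 6 saline-exposed libraries of run 1 and 533 to 715 in the 6 of run 2, with no overlap, and Plau was 76.5 to 102 and 42.8 to 67.5. Run 1 held 2 of the 6 saline only but 4 of the 6 saline + NNK libraries, and 6 of the 9 HDE-exposed ones. When run was added to the model, Col3a1 had a log2 fold change of 0.34 (adjusted p = 0.0252) and Plau one of 0.32 (adjusted p = 0.0266), both called. The summed level of 5 fibroblast and mural markers was 1315 ± 143 (SD, n = 6) in saline-exposed and 1573 ± 212 (SD, n = 6) in HDE-exposed libraries of run 1, and 1243 ± 221 (SD, n = 6) and 1192 ± 238 (SD, n = 3) in those of run 2, where the difference was smaller than the spread. Cxcl12 weighed most in this sum, with a mean raw count of 1157 over all libraries, beside 26.4 to 91.9 for the other markers in it. The part of the sum in the result was not tested.

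The sex of a mouse is given in the deposited table with raised low counts, and the run in the other table, and libraries were not matched between tables by their values. If both tables list the libraries of a group in the same order, the HDE-exposed libraries of run 2 came from males alone and its saline-exposed libraries from females alone, while run 1 held both sexes in both exposures. Exposure and sex could then not be told apart within run 2. Run and sex were not fitted together. In the table that gives sex, Col3a1 was the only 1 of 388 genes (0.258%) whose response to HDE differed between sexes, by -1.45 ± 0.31 on the log2 scale as males minus females (adjusted p = 0.0455). In females it rose by log2 1.17 ± 0.20 (adjusted p = 5.42e-05), with counts of 1310, 1506, 1508 and 1683 in 4 HDE-exposed against 533 to 1056 in 8 saline-exposed mice. In males it was 494, 664, 784, 873 and 1322 against 982 to 1042 in 4 mice, a log2 change of -0.28 ± 0.22 (adjusted p = 0.372). HDE against saline called 42.5% of all genes in females and 24.7% in males, and males and females of the saline-exposed mice differed in 0.258%, with none of the 8 genes among them.

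**Figure D3:**
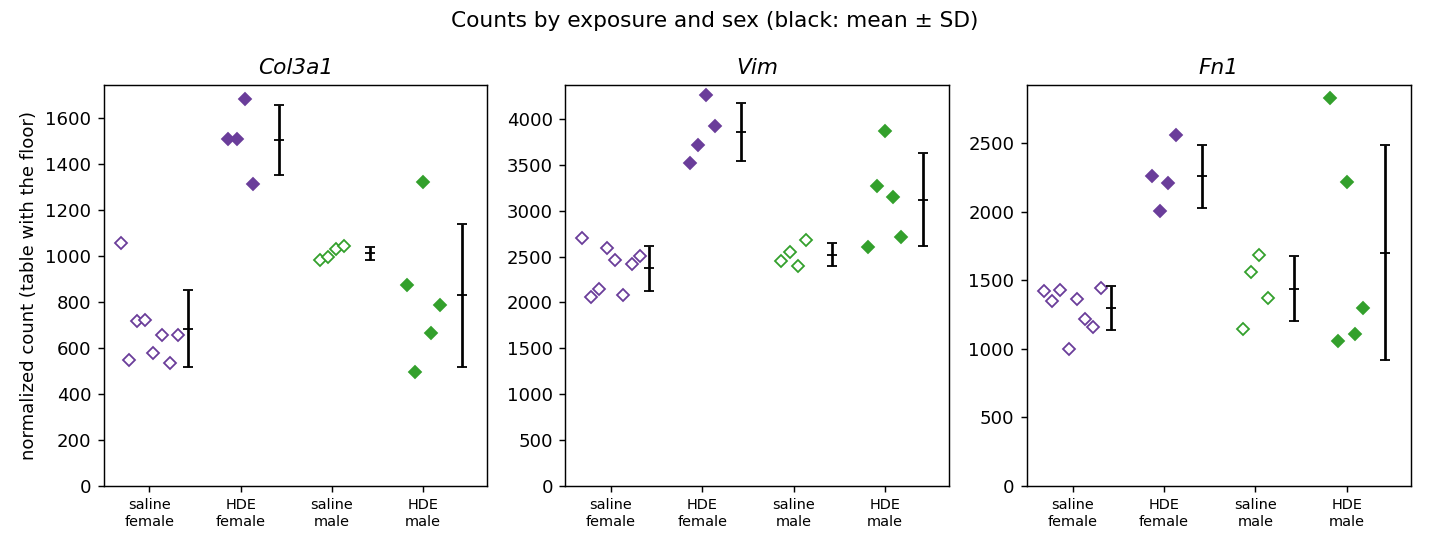
Normalized counts (vertical axis, from 0) of Col3a1, Vim and Fn1 in the deposited table with low counts raised, by exposure and sex (horizontal axis), with open symbols for saline, filled ones for HDE and black bars for the mean ± SD. All 4 HDE-exposed females lie above all saline-exposed mice for Col3a1, and 4 of 5 HDE-exposed males lie below all 4 saline-exposed males.

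The call for Col3a1 between sexes is a narrow one, held in 4 of 21 fits that each left out 1 mouse, with adjusted p from 0.00220 to 0.246 and log2 differences from -1.70 to -1.18. With TMM it was -1.44 ± 0.27 (adjusted p = 0.0131). The 4 saline-exposed males, at 982 to 1042, lay in the range of the saline-exposed libraries of run 1 and above all those of run 2, and the parts of run and sex in this difference were not tested. Vim rose by log2 0.74 ± 0.11 in females (adjusted p = 1.63e-05) and had 0.28 ± 0.12 in males (adjusted p = 0.111), a difference of -0.46 ± 0.17 with an adjusted p of 0.320. Plaur was called in both sexes, at 0.49 ± 0.17 in females and 0.69 ± 0.19 in males (adjusted p = 0.0249 and 0.0112).

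Ratios of 2 genes within a library do not depend on the scaling, and 6 were compared by an exact permutation test, two-sided, with exposure labels permuted within NNK groups (97020 relabellings) and p-values adjusted over the 6. None passed. The log2 ratio of Thbs1 to Fn1 was lower with HDE by a difference of -0.53 (exact p = 0.0337, adjusted 0.202), with means of -2.89 ± 0.43 (SD, n = 9) and -2.37 ± 0.56 (SD, n = 12), and the difference was -0.64 within each run. Col1a1 to Col3a1 differed by -0.33 (exact p = 0.0824, adjusted 0.247), and 5 of 9 HDE-exposed libraries lay below all saline-exposed ones. Without the HDE + NNK library in lane 11 of run 1 that difference was -0.47 (adjusted exact p = 0.0233). Without the saline + NNK library in lane 2 of run 2 that of Thbs1 to Fn1 was -0.62 (adjusted exact p = 0.0448). Col4a1 to Col3a1 differed by -0.46 (exact p = 0.131, adjusted 0.262), Plaur to Plau by 0.10, Vim to Col3a1 by 0.06 and Fn1 to Col3a1 by 0.02, the last 3 with adjusted p of 0.907, 0.907 and 0.916. In run 1 alone Plaur to Plau differed by 0.35, with 4 of 6 HDE-exposed libraries above all saline-exposed ones (exact p = 0.00952, adjusted 0.0571).

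**Figure D4:**
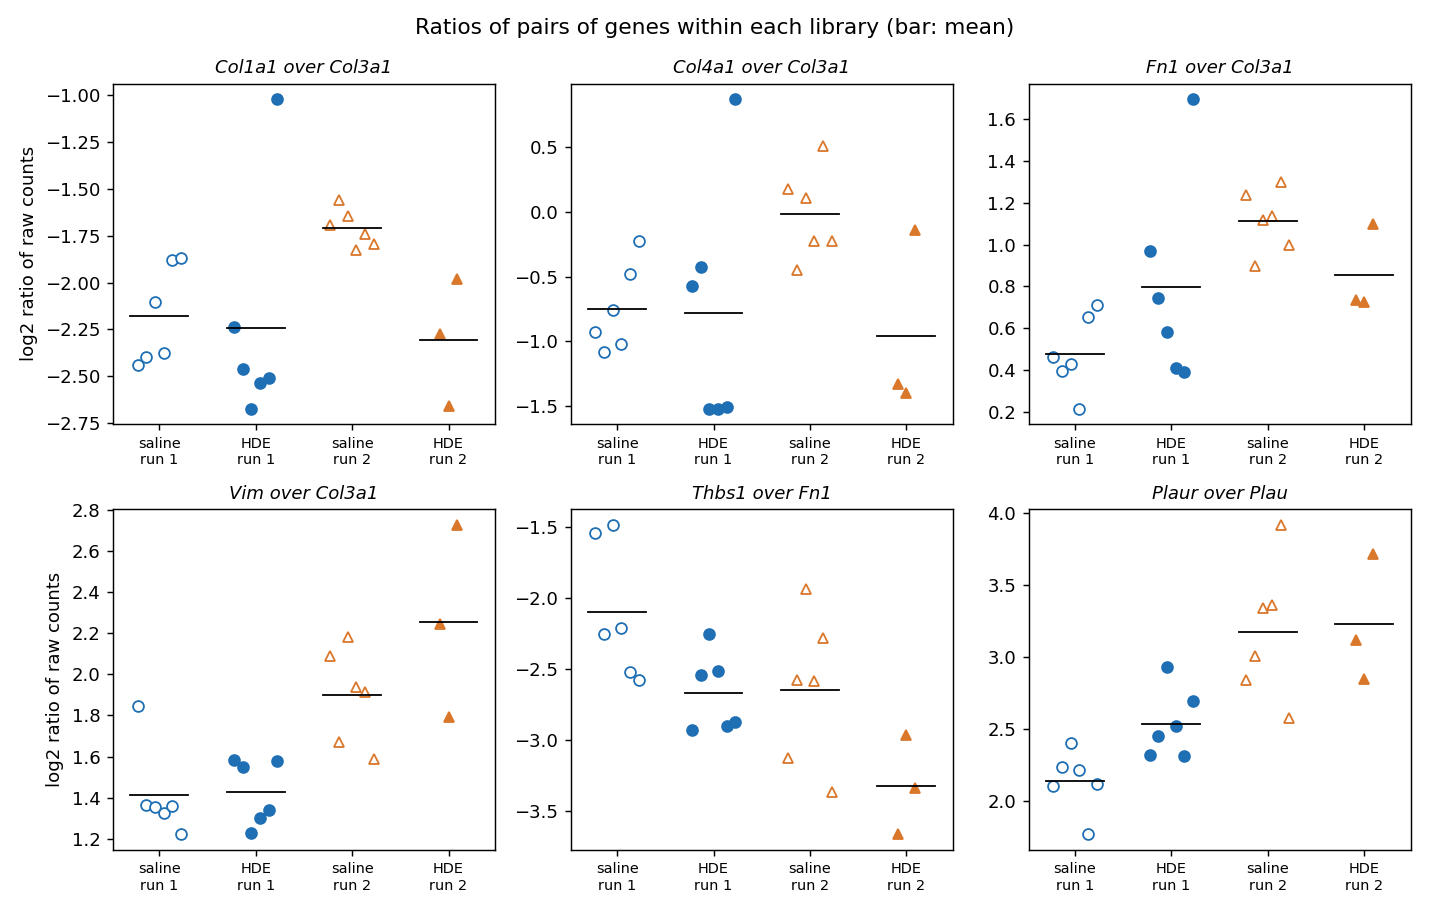
Log2 ratio of raw counts (vertical axis) of 6 pairs of genes in each library, by exposure and run (horizontal axis), with open symbols for saline, filled ones for HDE and bars for means. Thbs1 over Fn1 has its HDE mean below its saline mean in both runs, and all 3 HDE-exposed libraries of run 2 lie below the saline-exposed ones of that run for Col1a1 over Col3a1.

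The genes most like each of the 8 were read from Pearson correlations of deviations from the group means over the 21 libraries, among the 388 genes tested. They are given as a description, since all points share libraries, scaling and run. Fn1 and Col1a1 were each other's nearest gene (r = 0.91), followed by Fyn, a Src-family kinase, for both (r = 0.88 each), then Traf3 for Col1a1 and Lyn for Fn1. Col4a1 was nearest to Notch1, Igf1r and Tnfrsf1a (r = 0.94 each). Col3a1 was nearest to C1qb (r = 0.86), a chain of complement C1q, then to Cxcl15 and to Plau (r = 0.81). Vim was nearest to Emr1, Msr1 and Ctss (r = 0.89, 0.89 and 0.86), which are genes of macrophages. Plau was nearest to Irf8, Irf5 and Pik3cd (r = 0.93, 0.92 and 0.89), Thbs1 to Il2rg, Nfkbia and Myc (r = 0.88, 0.85 and 0.83), and Plaur, with the lowest values, to Tbk1, Amica1 and Mertk (r = 0.71, 0.69 and 0.68).

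With deviations taken from the mean of a group and run instead, several of these correlations were lower. Fn1 with Col1a1 was r = 0.75, Fn1 with Col4a1 0.72 and Col1a1 with Col4a1 0.69, but Col3a1 with Plau moved from 0.81 to -0.08 and Col3a1 with Fn1 from 0.63 to -0.05. Col3a1 and Vim had r = 0.70 and 0.65 by the 2 measures, and Col3a1 with Col4a1 moved from 0.20 to -0.64. The HDE + NNK library in lane 11 of run 1 weighs on these values. It had Col4a1 at 1597, where the rest of its group and run had 525 to 593. Its Col3a1 was 873 beside 1506 to 1683, and its Vim 2605 beside 3523 to 4263. Correlations without it were not computed. The only HDE + NNK library of run 2 cannot deviate from its own mean. The nearest genes became Litaf, Lcp1 and Lgals3 for Vim (r = 0.90, 0.88 and 0.87), Igf1r for Col4a1 (0.96), Cebpb for Plaur (0.85), C3 for Col1a1 (0.86), Ifi27 for Fn1 (0.80), Fpr2 for Thbs1 (0.78) and Spp1 for Col3a1 (0.74).

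**Figure D5:**
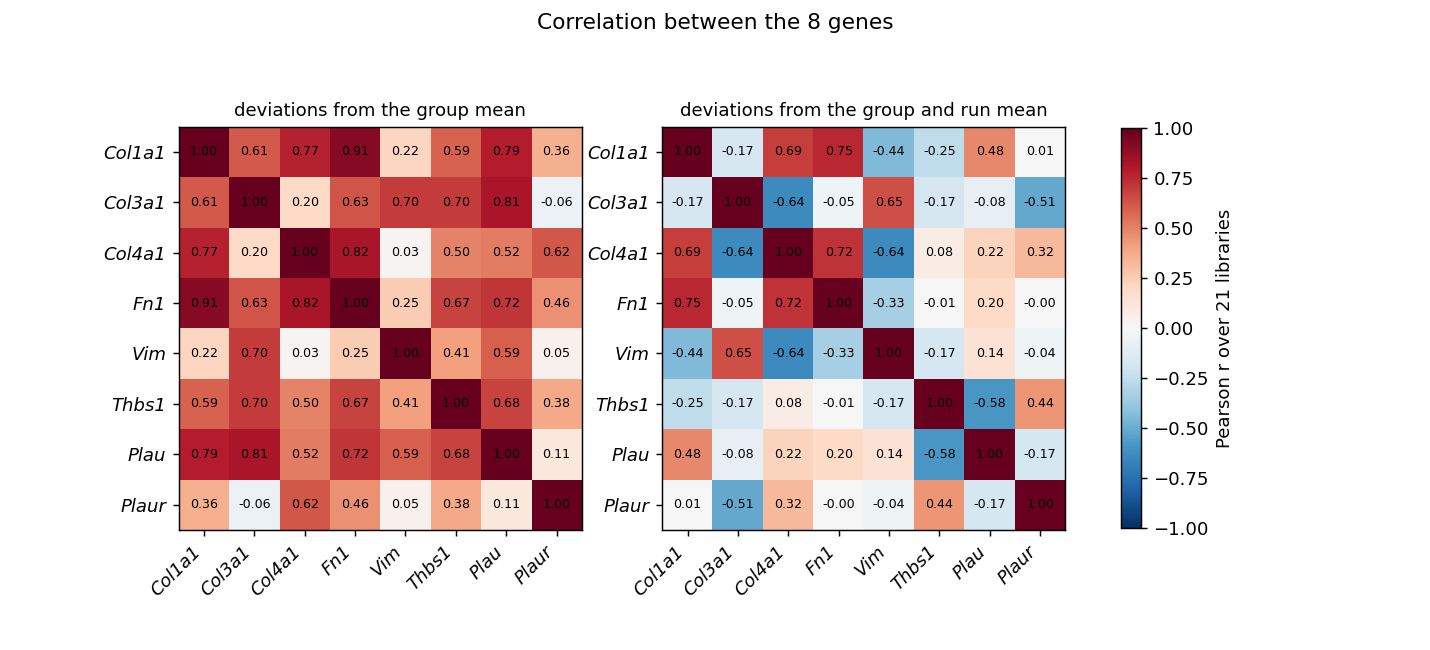
Pearson r between the 8 genes over 21 libraries (colour and number), from deviations from the group mean (left) and from the mean of group and run (right). The block of Fn1, Col1a1 and Col4a1 stays positive in both, while Col3a1 with Col4a1 and Vim with Col4a1 are at -0.64 on the right. The HDE + NNK library in lane 11 of run 1, high in Col4a1 and low in Col3a1 and Vim within its group and run, weighs on these values.

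Other genes of the same pathways moved in both directions. Of 8 tested matrix receptors 1 rose and 3 fell, with Itga4, an integrin chain of leukocytes that binds fibronectin, at log2 0.80 ± 0.12 (adjusted p = 6.65e-06), Itga6, a laminin receptor chain, at -0.45 ± 0.11 and Cd36, a receptor of thrombospondin 1, at -0.35 ± 0.10. Itgb1 (-0.16 ± 0.11) and Lrp1 (0.16 ± 0.12) did not pass. Of 5 tested proteases and protease inhibitors 3 rose, the lysosomal cathepsins Ctss (1.99 ± 0.20), Ctsl (0.97 ± 0.16) and Ctsh (0.25 ± 0.08), while Serping1 (-0.13 ± 0.11) and F2rl1 (-0.0025 ± 0.17) did not pass. Of 9 genes of the TGF-beta pathway 2 rose, the receptor Tgfbr1 (0.71 ± 0.10) and the ligand Tgfb1 (0.47 ± 0.09), and 2 fell, of which the ligand Tgfb2 changed by -0.62 ± 0.14. Tgfbr2 (0.06 ± 0.08) and Smad2 (-0.08 ± 0.09) did not pass. Of 7 other matrix and wound proteins 2 rose and 2 fell, among them osteopontin (Spp1, 1.28 ± 0.14), clusterin (Clu, 0.72 ± 0.11) and Vegfa (-0.73 ± 0.13), and Cd9 (0.19 ± 0.09) and Tnfsf12 (0.17 ± 0.12) did not pass. The medians of these 4 lists were -0.15, 0.25, -0.03 and 0.17, beside 0.15 over all genes. Tgfb1, Tgfbr1, Vegfa and Cd9 also stand in gene tables that the study chose on these libraries for the same comparison. So do Muc1 and Cdh1 among the epithelial markers, and Itga6 stands in one for another comparison. Their directions are therefore not independent evidence.

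Markers of several cell types differed with exposure, some higher and some lower. Of 9 tested macrophage markers 8 rose and 1, Marco, fell (median log2 1.27), and of 9 endothelial markers 9 fell (median -0.53). The macrophage markers Cd68, Cd14, Csf1r and Mrc1 and the endothelial marker Kdr also stand in those gene tables of the study. For these markers too the direction is not independent evidence. Both tested B cell markers, the 1 tested T cell marker (Cd3g) and the 1 tested neutrophil marker (S100a8) rose. Of 4 tested epithelial markers 1 rose (Muc1, 0.49 ± 0.08) and 1 fell (Itga6). Neither tested fibroblast or mural marker passed, Thy1 at 0.36 ± 0.16 (adjusted p = 0.0582) and Cxcl12 at 0.10 ± 0.10 (adjusted p = 0.456), and Fap and Pdgfrb were below the background of the library in 16 and 8 of 21 libraries. The 1 tested platelet marker, Ppbp, had -0.22 ± 0.13 (adjusted p = 0.173). No marker was at 0 counts in any library, but several that were not tested lay mostly below the background of the library. These included Cd79a, Cd8a and Blk in 20, 19 and 17 of 21 libraries, and Mpo and Cd3e in 14 and 11. The part of these cell types in the results for the 8 genes was not tested.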

How the data were processed

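Lung RNA of 21 mice was measured, from 24 left lungs selected of which 21 passed normalization. The authors hybridized 50 ng of RNA for 16 h and read it on an nCounter Sprint with the nSolver software, and deposited 2 tables of counts, raw counts of 784 probes and the same with values under 87 raised to 87. The raw table gives group, run and lane, the other sex and replicate number. As in the study's methods, 4 housekeeping genes (Eef1g, Oaz1, Rpl19, Sdha) gave the scaling factor as their geometric mean. Genes other than these 4 were tested where their raw counts averaged 87 or more, which left 388. Comparisons used the robust quasi-likelihood test of edgeR 4.0.16 (R 4.3.3) with a mean for each of the 4 groups and Benjamini-Hochberg adjustment over the 388 genes at a threshold of 0.05, and the code was tested on simulated data. Alternatives used DESeq2 1.42.0 (with its own scaling in place of the 4 genes) and limma 3.58.1, other scalings, minimums, run, sex, replicate number and single libraries left out. The SE of a fold change was derived from its F statistic. The models of HDE by run and HDE by sex, and the centring on group and run, were added after the data were seen. The members and gene lists were chosen with earlier results of these data known. All 8 genes are named, of each list up to 3 called and 2 not called, and the genes most like each of the 8, of which 1 is not reported here. Library totals of 174604 to 529829 counts set the counting precision, and the number of mice that of the comparisons. Promoter windows and chromosomes come from RefSeq.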

Additional observations from a re-analysis of the deposited data

Results flagged for a closer look

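Within each group the highest and lowest library was set against the others by Dixon's ratio, for 32 sets of values, and 3 stood outside. About 1 in 20 such sets does so by chance. In the HDE + NNK group Col4a1 was 1597 normalized counts in the library in lane 11 of run 1, where the next was 593. In the saline + NNK group Plaur was 648 in the library in lane 1 of run 2, where the next was 433. In the saline only group Col3a1 was 1042 in the library in lane 6 of run 1, where the next was 722.

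The response of Fn1 to HDE differed between runs by -1.09 on the log2 scale, as run 2 minus run 1, in the test of the difference over all genes. The response of Col3a1 differed between sexes by -1.45, as males minus females. Run and sex are given in different tables and were not fitted together.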

How the results depend on the processing

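Vim, Plaur and Fn1 were called higher with HDE in every fit that left out 1 library and under TMM, DESeq2 and limma, but of the 3 only Vim was in run 2 alone and none was with positive control scaling. Scaling by the positive control probes left 0 of the 8 genes called in HDE against saline, 0 in HDE only against saline only and 0 in HDE + NNK against saline + NNK, with 67 of 388 genes called in the first, beside 192. TMM and DESeq2 left 0 called in HDE only against saline only. In run 1 alone that comparison called 4, with 2 HDE only and 2 saline only libraries there. It called 2 with lane 12 of run 2 (HDE only) and the marked library left out. Shares of all genes called in that comparison under these settings are not given here. With all libraries and the main scaling the share was 34.5%. In run 2 alone HDE + NNK against saline + NNK called 1, with 1 HDE + NNK library there. In run 2 alone the log2 fold changes of HDE against saline turned for Col1a1 (-0.54), Col4a1 (-0.82), Fn1 (-0.25) and Thbs1 (-0.94), and for Col4a1 in HDE only against saline only (-1.02). Those of Col3a1 (-0.047 ± 0.14) and Plau (-0.076 ± 0.22) were below 0 by less than their SE. For Col3a1 the model of HDE by run gave 0.03 ± 0.18 in run 2. The log2 ratio of Col4a1 to Col3a1 was 0.11 in run 1 alone. The cause was not tested.

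Over the fits that left out 1 library the count of the 8 genes called was 3 to 5 in HDE against saline, 1 to 3 in HDE only against saline only (in run 2, 3 without lane 12, and 2 without lane 11 or lane 9) and 2 to 4 in HDE + NNK against saline + NNK (4 without lane 9 of run 2). With every library, 49.5%, 34.5% and 35.6% of all genes were called in these comparisons, in that order. Shares of all genes in the single fits are not given here. The ratio differences ran from -0.47 to -0.27 for Col1a1 to Col3a1 and from -0.62 to -0.42 for Thbs1 to Fn1. Correlations of deviations between samples of different groups with the same replicate number ran from -0.14 to 0.51. Samples with different numbers were not compared, so whether replicate numbers pair the samples was not tested. With replicate number as a block 4 of the 8 genes were called, Plau (0.50, adjusted p = 0.0364) in place of Col3a1 (0.33, adjusted p = 0.0718), and 175 of all genes. Depth limits Plau most, with raw counts near background.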
